A study of Mus musculus with 6 samples.

Results

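The genes described here are 6 STAT transcription factors and 3 SOCS genes: Stat2, Stat3, Stat4, Stat5a, Stat5b, Stat6, Socs1, Socs2 and Socs3. They were taken by symbol, with earlier results of these data known, from a table of 55298 gene identifiers in which 18161 genes were tested, and all 9 were among the tested genes. Each of the 9 symbols belonged to 1 identifier. The RNA came from cells captured out of mouse brain on magnetic beads carrying an antibody against O4, a lipid antigen on the surface of oligodendrocytes and their late precursors. The cells are labelled as oligodendrocytes and were not grown in culture. All mice were of the strain labelled c56Bl/6j and were taken when disease peaked. The EAE group (experimental autoimmune encephalomyelitis, a model of multiple sclerosis) had been immunized with the MOG 35-55 peptide of myelin oligodendrocyte glycoprotein, and its 3 samples were pools of 2 mice each. The OVA group had received ovalbumin in place of the peptide, and its 3 samples came from 4 mice, with 1 mouse behind replicate 1, a pool of 2 mice behind replicate 2 and 1 mouse behind replicate 3. Age, sex and batch are not given in the labels, and no transgene or deletion is named.

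STAT proteins wait in the cytoplasm until a cytokine receptor and its Janus kinases phosphorylate them, then pair up, enter the nucleus and switch on genes. Stat2 works with Irf9 in the ISGF3 complex, which carries the signal of type I and type III interferons. Stat3 is the main factor below gp130 cytokines such as interleukin-6, LIF and oncostatin M. Stat4 carries interleukin-12 signals and Stat6 interleukin-4 and interleukin-13 signals, while Stat5a and Stat5b are used by growth hormone, prolactin, interleukin-2 and GM-CSF. SOCS proteins are made in response to STATs and shut the pathway down. Socs1 and Socs3 block Janus kinases directly, Socs3 when bound to gp130, and Socs2 restrains growth hormone signalling. In the central nervous system LIF and related cytokines support oligodendrocyte survival through gp130, and Stat3 is best known there for its part in reactive astrocytes.

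Every value below is a regularized logarithm (rlog) on the log2 scale, which pulls the differences of genes with few reads towards 0. Differences are EAE minus OVA with their standard error (SE), folds are 2 to the power of the difference, and group values are means ± SD over 3 samples. A gene was called where the adjusted p of a limma fit over all 18161 tested genes was under 0.05. By that rule 2 of the 9 genes, Stat2 and Stat3, were higher in EAE, and none was lower. The same rule called 312 genes higher (1.72% of those tested) and 121 genes lower (0.666%). The other 7 genes were not called. An unadjusted limma p under 0.05 was found for 4 of the 9 genes, and for 2963 of the 18161 tested genes. All 9 differences were above 0, as were those of 8951 tested genes. Those of Stat5a and Stat5b were small and changed sign with the processing. The median difference of the 9 genes was 0.26, against -0.0024 over all tested genes. Every EAE value lay above every OVA value for 4 of the 9 genes, Stat2, Stat3, Socs1 and Socs3, and such a separation was found in 12.1% of all tested genes.

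**Figure D1:**
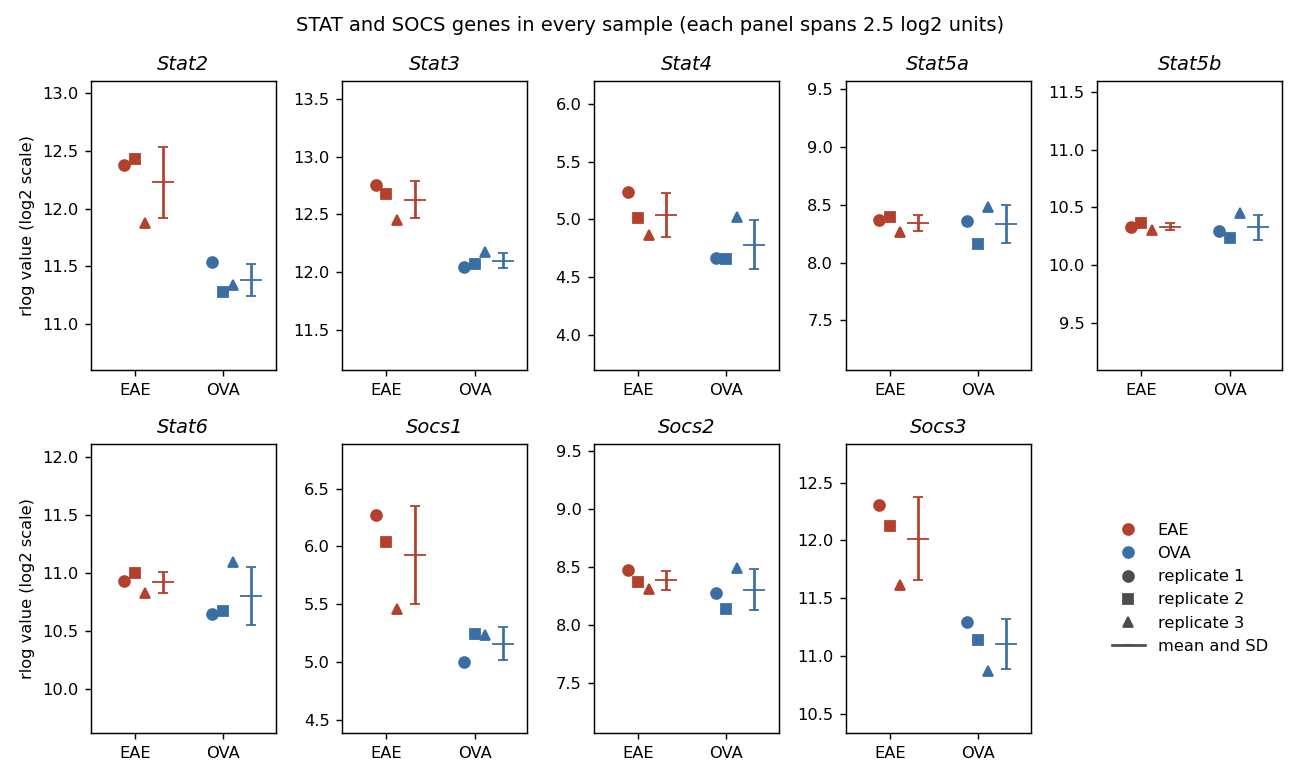
The rlog value (log2 scale) of each of the 9 genes in every sample, with EAE samples left of OVA samples in each panel, points for samples and a bar for the group mean and SD. Stat2, Stat3, Socs1 and Socs3 have all 3 EAE points above all 3 OVA points, while the points of Stat4, Stat5a, Stat5b, Stat6 and Socs2 overlap.

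Samples differed in more than their treatment. In EAE samples, 6 of 10 myeloid markers were higher and none lower, with a summed log2 level of 16.16 to 16.39, against 15.03 to 15.53 in OVA samples. For infiltrating monocyte markers, 2 of 8 were higher, with 13.49 to 14.01 in EAE samples against 11.78 to 13.20 in OVA samples, the highest of these being replicate 3. Of 8 homeostatic microglia markers 2 were lower, with 14.26 to 14.72 in EAE samples against 14.71 to 15.03 in OVA samples. For T cell markers, 4 of 8 were higher, with 9.61 to 9.90 in EAE samples against 8.71 to 9.12 in OVA samples. Among 8 astrocyte markers 1, Gfap, was higher and 5 were lower in EAE. Their summed level was 15.72 to 15.99 in EAE samples against 16.52 to 16.84 in OVA samples. None of 10 oligodendrocyte markers passed the threshold, at 20.26 to 20.41 in EAE samples against 19.88 to 20.32 in OVA samples. Of 6 oligodendrocyte precursor markers 1 was lower, with 14.69 to 14.99 in EAE samples against 14.90 to 15.51 in OVA samples. None of 6 neuron markers was called, with 11.40 to 11.86 in EAE samples against 10.63 to 11.24 in OVA samples. None of these markers was at 0 in any sample. OVA replicate 3 stood apart from the other OVA samples, with a neutrophil marker level of 15.24 where the others reached at most 12.86 and the EAE samples 12.54 to 13.05. The same OVA sample was the highest of all 6 for 8 of 8 endothelial, 6 of 6 pericyte and 4 of 4 B cell markers, and it gave the lowest oligodendrocyte level, 19.88. Summed endothelial levels were 15.38 to 15.94 in EAE samples against 15.87 to 16.59 in OVA samples, pericyte levels 14.30 to 14.70 in EAE samples against 14.46 to 15.33 in OVA samples, and B cell levels 8.75 to 8.95 in EAE samples against 8.82 to 10.23 in OVA samples. Without replicate 3 the OVA levels of these 3 lists reached at most 16.07, 14.90 and 8.89. All markers of these 3 lists had differences below 0, and none was called. Xist, the X-inactivation RNA, was 13.5 to 14.2 in EAE samples against 7.39 to 7.63 in OVA samples, and 3 of 4 Y-linked genes were lower in EAE, so sex makeup moved with the groups and the effects of sex and treatment cannot be told apart. In such bulk samples, more cells of a type and more RNA per cell cannot be told apart either. The part of these differences in the results below was not tested.

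Stat2, which transmits interferon signals, was 12.38, 12.43 and 11.87 in EAE replicates 1 to 3, against 11.54, 11.28 and 11.34 in OVA replicates 1 to 3. All EAE samples were above all OVA samples, EAE replicate 3 was the lowest of its group, and the gap between the groups was 0.33. The group values were 12.23 ± 0.31 in EAE and 11.39 ± 0.14 in OVA (SD, n = 3 each). The difference was 0.84 ± 0.15 (SE; 95% interval 0.48 to 1.20), a 1.79-fold difference, at a limma adjusted p of 0.0385. Stat2 (ENSMUSG00000040033.16) lies on the plus strand at chr10:128270559-128292849 (GRCm38). Stat3, the mediator of gp130 signals, was 12.76, 12.67 and 12.45 in EAE samples, against 12.05, 12.07 and 12.18 in OVA samples. The groups did not overlap, by a gap of 0.27, and OVA replicate 3 was the highest of its group. The group values were 12.63 ± 0.16 in EAE and 12.10 ± 0.067 in OVA, and the difference was 0.53 ± 0.096 (95% interval 0.30 to 0.75), or 1.44-fold, at a limma adjusted p of 0.0381. Stat3 (ENSMUSG00000004040.16) lies on the minus strand at chr11:100885098-100939540.

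**Figure D2:**
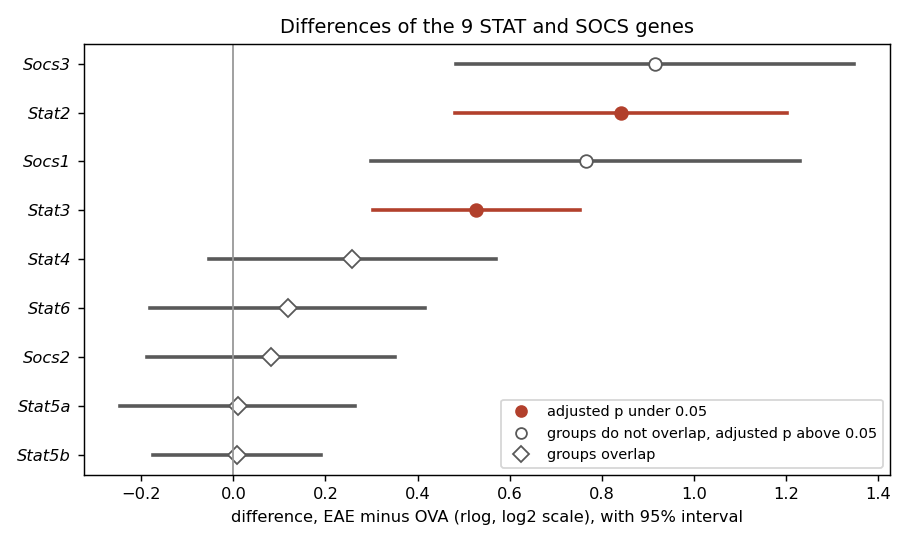
The difference EAE minus OVA (log2 scale) of each of the 9 genes, with bars for its 95% interval. The intervals of Stat2, Stat3, Socs1 and Socs3 lie above 0, and those of the 5 other genes include 0.

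The calls of Stat2 and Stat3 depended on which samples entered the fit. Without EAE replicate 3, 4 of the 9 genes were called, at limma adjusted p of 0.0114 for Stat2, 0.0336 for Stat3, 0.0186 for Socs3 and 0.0200 for Socs1. Without OVA replicate 3, Stat2 (0.0314), Stat3 (0.0180) and Socs3 (0.0440) were called. Leaving out any of the other 4 samples (replicates 1 and 2 of either group) left none of the 9 called. Over all tested genes, 84 and 24 were higher without EAE replicates 1 and 2, and 99 and 30 without OVA replicates 1 and 2. The counts were 286 without EAE replicate 3 and 850 without OVA replicate 3, against 312 with all 6 samples. The number of calls thus moved across the whole table and not only among the 9 genes. Over the 6 leave-outs the Stat2 difference was 0.74 to 1.02 and the Stat3 difference 0.46 to 0.62, with adjusted p of 0.0114 to 0.158 and 0.0180 to 0.172. A fit without the filter on low values gave Stat2 an adjusted p of 0.0479 and Stat3 one of 0.0507. EAE replicate 3 was the lowest EAE sample for all 9 genes, while it was the lowest for 34.2% of all tested genes. OVA replicate 3 was the highest OVA sample for 6 of the 9 (Stat3, Stat4, Stat5a, Stat5b, Stat6 and Socs2), against 40.2% of all tested genes, and the lowest for Socs3.

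**Figure D3:**
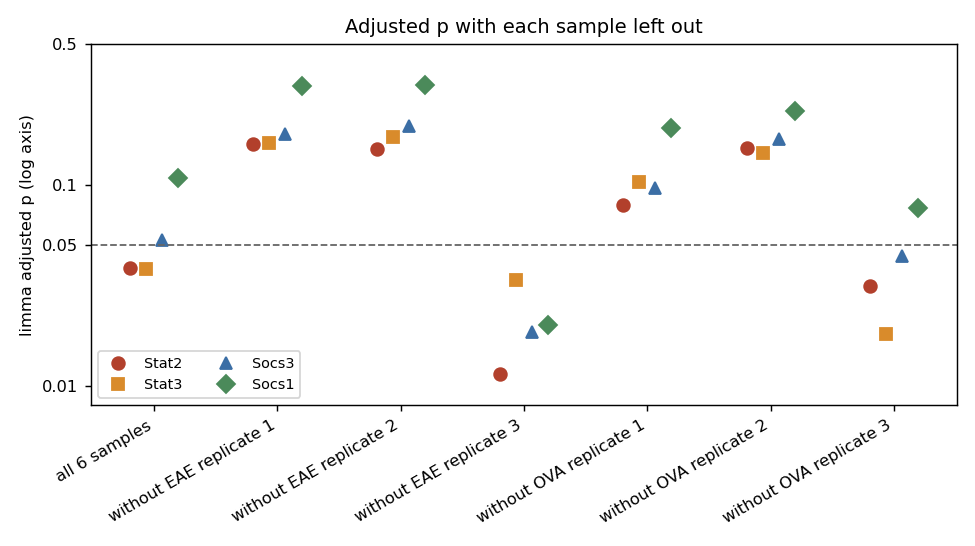
The limma adjusted p (log axis) of Stat2, Stat3, Socs3 and Socs1 with all 6 samples and with each sample left out in turn, with a dashed line at 0.05. The lowest values are those without EAE replicate 3, where all 4 genes lie under the line, and for Stat3 without OVA replicate 3.

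The other 4 STATs had smaller differences, and their groups overlapped. Stat4 (chr1:51987148-52107189, plus strand) was 5.24, 5.01 and 4.86 in EAE samples, against 4.66, 4.65 and 5.02 in OVA samples. The groups overlapped through OVA replicate 3, and the difference was 0.26 ± 0.13 (95% interval -0.054 to 0.57; limma adjusted p = 0.393). Stat6 (chr10:127642986-127660957, plus strand) was 10.93, 11.00 and 10.82 in EAE samples, against 10.64, 10.67 and 11.09 in OVA samples, where replicate 3 was the highest of all 6. Its difference was 0.12 ± 0.13 (95% interval -0.18 to 0.42; limma adjusted p = 0.696), and without OVA replicate 3 it was 0.26, at a limma adjusted p of 0.0885. Stat5b (chr11:100780731-100850724, minus strand) was 10.33, 10.37 and 10.30 in EAE samples, against 10.30, 10.24 and 10.45 in OVA samples, where the groups overlapped, a difference of 0.0073 ± 0.078 (95% interval -0.17 to 0.19; limma adjusted p = 0.976). Stat5a (chr11:100859351-100885169, plus strand) was 8.37, 8.39 and 8.27 in EAE samples, against 8.36, 8.16 and 8.48 in OVA samples, again with overlap, a difference of 0.0093 ± 0.11 (95% interval -0.25 to 0.26; limma adjusted p = 0.978). All 4 intervals include 0, and they also include differences of either sign up to the bounds given.

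Stat5a and Stat5b are close paralogues that lie 8626 bases apart on chromosome 11, so how reads were split between them is uncertain. Stat3 and Stat5a overlap by 72 bases at their 3′ ends on opposite strands, and Stat6 overlaps Nab2 by 40 bases. The library kit keeps the strand, but the sources used here do not say whether the counting used it. Within a sample, Stat3 minus Stat5a was 4.39, 4.28 and 4.18 in EAE samples, against 3.69, 3.91 and 3.70 in OVA samples. Stat3 minus Stat5b was 2.42, 2.31 and 2.15 in EAE samples, against 1.75, 1.84 and 1.73 in OVA samples. The groups overlapped in neither within-sample difference, and Stat3 stood higher over both neighbours in every EAE sample than in any OVA sample. Stat5a minus Stat5b was -1.96, -1.97 and -2.04 in EAE samples, against -1.93, -2.08 and -1.97 in OVA samples, with overlap. Stat2 minus Stat6, which both lie on chromosome 10, was 1.45, 1.43 and 1.05 in EAE samples, against 0.90, 0.61 and 0.25 in OVA samples, without overlap. These within-sample differences were described and not tested.

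**Figure D4:**
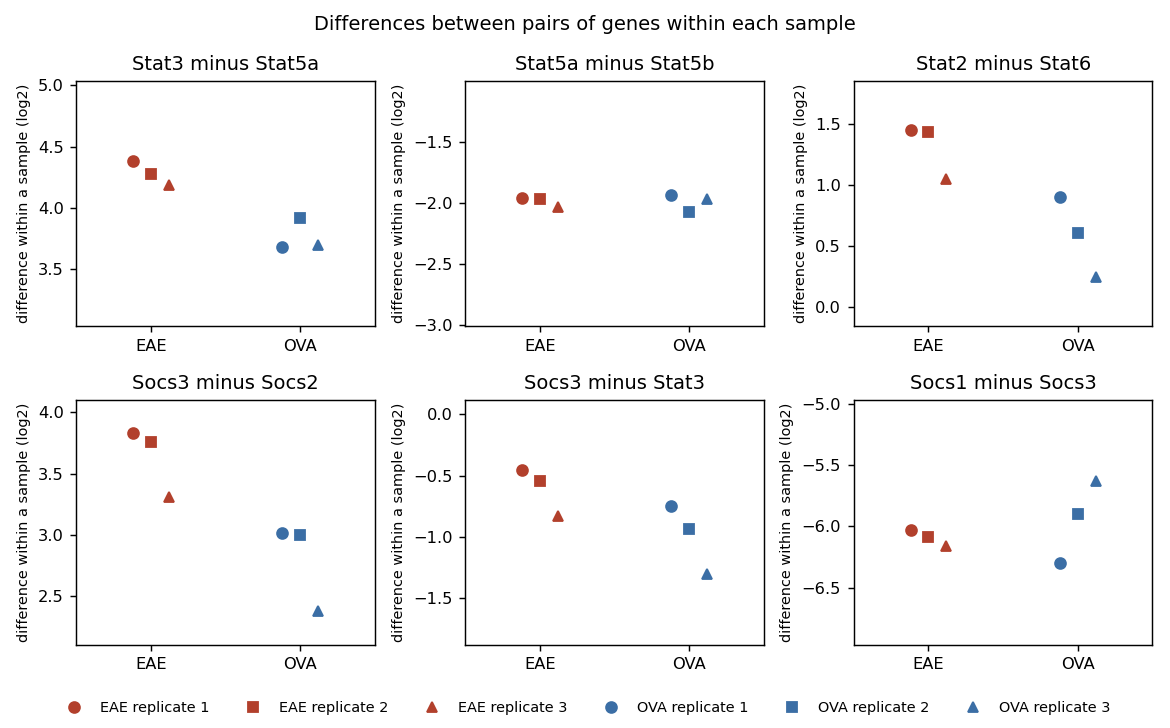
Within-sample differences (log2 scale) between pairs of the 9 genes, with EAE samples left of OVA samples. Stat3 minus Stat5a, Stat2 minus Stat6 and Socs3 minus Socs2 separate the groups, while Stat5a minus Stat5b stays between -2.08 and -1.93 in all 6 samples.

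Of the SOCS genes, Socs3 and Socs1 had the larger differences. Socs3 was 12.30, 12.13 and 11.62 in EAE samples, against 11.30, 11.14 and 10.87 in OVA samples. The groups did not overlap, by a gap of 0.32, and the lowest OVA value was that of replicate 3. The group values were 12.02 ± 0.36 in EAE and 11.10 ± 0.22 in OVA, and the difference was 0.91 ± 0.19 (95% interval 0.48 to 1.35), or 1.89-fold, at a limma adjusted p of 0.0531, just above the threshold. Socs1 was 6.28, 6.04 and 5.46 in EAE samples, against 5.00, 5.24 and 5.24 in OVA samples. Again no EAE value reached down to an OVA value, with a gap of 0.22. Its difference was 0.77 ± 0.20 (95% interval 0.30 to 1.23; limma adjusted p = 0.108), with group values of 5.93 ± 0.42 in EAE and 5.16 ± 0.14 in OVA. Socs2 was 8.47, 8.37 and 8.31 in EAE samples, against 8.28, 8.14 and 8.49 in OVA samples, a difference of 0.082 ± 0.12 (95% interval -0.19 to 0.35; limma adjusted p = 0.774). Its groups overlapped through OVA replicate 3. On GRCm38, Socs3 (ENSMUSG00000053113.3) lies at chr11:117966079-117970047, Socs1 (ENSMUSG00000038037.5) at chr16:10782240-10785536 and Socs2 (ENSMUSG00000020027.18) at chr10:95385362-95417180, all on the minus strand.

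Socs3 minus Socs2 was 3.83, 3.75 and 3.31 in EAE samples, against 3.02, 3.00 and 2.38 in OVA samples, without overlap. Socs3 minus Stat3 was -0.45, -0.54 and -0.83 in EAE samples, against -0.75, -0.93 and -1.31 in OVA samples, and the groups overlapped. Socs1 minus Socs3 was -6.03, -6.09 and -6.16 in EAE samples, against -6.30, -5.90 and -5.63 in OVA samples, also with overlap.

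Promoter stretches are shown for the 3 genes among the 4 without overlap whose 300-base RefSeq window (build GRCm38.p6; 250 bases before the start and 50 after) held one of the motifs searched; the 250 bases before the start are printed, 5′ to 3′ on the strand of the gene, with motif matches in capitals. The motifs were the GAS site TTCNNNGAA, the interferon response core GAAANNGAA, and a GAS-like site, the arms of GAS with 1 more base between them, read on both strands. RefSeq starts can differ from the gene starts given above. The Socs3 stretch lies wholly inside the Socs3 span given above, chr11:117966079-117970047, and so downstream of the 5′ end of that span. Windows were found for 8 of the 9 genes, 11 in all.
Socs3 promoter, chr11:117969367-117969616, minus strand: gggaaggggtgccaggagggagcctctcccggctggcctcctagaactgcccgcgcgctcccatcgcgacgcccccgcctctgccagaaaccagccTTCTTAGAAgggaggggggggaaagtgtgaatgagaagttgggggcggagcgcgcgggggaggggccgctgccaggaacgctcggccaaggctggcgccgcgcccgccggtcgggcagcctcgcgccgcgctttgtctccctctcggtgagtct
Socs1 promoter, chr16:10785537-10785786, minus strand: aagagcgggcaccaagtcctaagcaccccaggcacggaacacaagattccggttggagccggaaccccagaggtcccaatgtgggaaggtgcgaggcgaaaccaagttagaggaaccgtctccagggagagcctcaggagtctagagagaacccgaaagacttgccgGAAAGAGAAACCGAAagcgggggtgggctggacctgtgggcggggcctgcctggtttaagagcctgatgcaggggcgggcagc
Stat2 promoter, chr10:128270248-128270497, plus strand: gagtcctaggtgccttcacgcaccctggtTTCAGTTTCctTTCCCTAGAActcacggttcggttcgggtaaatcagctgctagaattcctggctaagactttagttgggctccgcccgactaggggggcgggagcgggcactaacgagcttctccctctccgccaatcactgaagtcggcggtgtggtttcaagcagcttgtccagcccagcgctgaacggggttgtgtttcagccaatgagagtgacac
The Socs3 stretch held 1 GAS site at positions -154 to -146 from the RefSeq start, inside the gene span given above. The Socs1 stretch held 2 overlapping interferon response cores, at -83 to -75 and -77 to -69. The Stat2 stretch held an interferon response core on the minus strand at -221 to -213 and the wider GAS-like site at -210 to -201. In the Stat4 windows, 1 interferon response core lay at -97 to -89 of the second window, and the windows of Stat3, Stat5a, Stat5b and Stat6 held none of the 3 motifs. Among 32851 promoter windows, 8.30% held the GAS site, 6.95% the GAS-like site and 8.56% the interferon response core. These matches are descriptions of letters, and neither a match nor its absence says that a factor binds.

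Between genes, levels were compared per kilobase of exon (rlog minus log2 of the exon length over all annotated isoforms). By group means in OVA samples, Socs3 was highest on this scale, then Stat3, Stat2, Stat6, Stat5b, Stat5a, Socs2, Socs1 and Stat4. In EAE samples the mean of Stat2 stood above that of Stat3, with the rest of the order the same. Without the length scaling, Stat2 minus Stat3 was -0.38, -0.24 and -0.58 in EAE samples, against -0.51, -0.80 and -0.84 in OVA samples. The length scaling adds the same amount in every sample, so these signs are not the order per kilobase. Per kilobase, Stat2 stood above Stat3 in every EAE sample and in OVA replicate 1, and below it in OVA replicates 2 and 3. The groups overlapped in this within-sample difference, so the change of order between the groups did not hold sample by sample. Socs3 was 10.49 ± 0.36 in EAE and 9.57 ± 0.22 in OVA, and Stat4 was 3.09 ± 0.19 in EAE and 2.83 ± 0.21 in OVA. Stat2 was 9.66 ± 0.31 in EAE and 8.82 ± 0.14 in OVA, and Stat3 was 9.37 ± 0.16 in EAE and 8.85 ± 0.067 in OVA. In OVA the gap of 0.029 between Stat3 and Stat2 and that of 0.15 between Stat2 and Stat6 were within their spread.

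The genes whose profile over the 6 samples was most like that of Stat2, by root mean square difference of centred values among 15080 genes, were Parp3 (0.055), Scimp (0.081) and Nlrp3 (0.096), a sensor of the inflammasome. For Stat3 they were Ccdc33 (0.033), Klk9 (0.034) and Kynu (0.042), an enzyme of tryptophan breakdown. A profile holds the difference between the groups, so genes of like profile have a like difference by construction. Parp3, Scimp and Nlrp3 were not called (limma adjusted p of 0.0581, 0.0587 and 0.0508). Ccdc33, Klk9 and Kynu were (0.0341, 0.0383 and 0.0315). Among 13 protein-coding neighbours of the 9 genes that were not themselves members, none was called, with differences of -0.55 to 0.40 and a lowest limma adjusted p of 0.0722. Pgs1, 16244 bases from Socs3, had the value of 0.40, and Il23a, 3289 bases from Stat2, had 0.21 (limma adjusted p = 0.156). Cavin1, 17192 bases from Stat3, had -0.38, and Clec16a, 37361 bases from Socs1, had -0.022.

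The rest of the pathway was read from lists of genes by role. Of 5 other SOCS family genes none was called, with a median difference of -0.078, and Cish had the smallest p. Cish, a SOCS-family inhibitor of STAT5 signalling, was 9.02, 8.76 and 8.54 in EAE samples, against 7.67, 8.10 and 8.22 in OVA samples, a difference of 0.77 ± 0.18 (limma adjusted p = 0.0740). None of 4 Janus kinases was called (median 0.12), and Jak2 had 0.32 at an adjusted p of 0.0777. Nor was any of 12 other inhibitors, of 7 genes that hold the interferon receptors and Irf9, or of 11 tested gp130 and STAT3-linked receptors, with medians of 0.18, 0.014 and -0.22. In these lists Ifngr2, a subunit of the interferon gamma receptor, had 0.49 (adjusted p = 0.0795) and Lifr, the LIF receptor, had -0.28 (adjusted p = 0.110). Of 15 receptors linked to STAT5, 5 were higher and 1 was lower, with a median of 0.62.

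Csf2rb2, a beta chain of the interleukin-3 receptor, averaged 10.59 ± 0.48 in EAE and 8.70 ± 0.17 in OVA, a difference of 1.89 ± 0.22 (limma adjusted p = 0.0114). Csf2rb, the common beta chain of GM-CSF, interleukin-3 and interleukin-5 receptors, differed by 1.56 ± 0.28 (adjusted p = 0.0353), and Il2rb, a chain of the interleukin-2 receptor, by 1.30 ± 0.12 (adjusted p = 0.00531). Csf2rb and Csf2rb2 are close paralogues, so how reads were split between them is uncertain. The other 3 calls in that list were named after their values were seen: Il3ra and Il2rg were higher by 0.81 and 0.62, and Ghr, the growth hormone receptor, was lower at -0.62. Of the STAT4-linked receptors 1 of 2 tested was called, Il12rb1, which differed by 1.47 (adjusted p = 0.0173), and of the STAT6-linked receptors 1 of 3, Il2rg (adjusted p = 0.0429). Of 27 ligands listed, only 16 were tested, and 2 were higher, Lif by 0.75 (adjusted p = 0.0317) and Ifng by 0.44 (adjusted p = 0.0246). Ifng was low, at 4.32, 4.48 and 4.32 in EAE samples against 3.89, 4.00 and 3.90 in OVA samples. Genes with a mean under 3 were not tested.

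Genes known as targets of the STATs were counted without the 9 genes themselves. Of 14 ISGF3 targets 4 were higher and none lower, with a median of 1.07, and all 14 differences were above 0. The smallest was that of Irf9, 0.49, which was also counted with the interferon receptors. Summed levels of the 14 were 13.60 to 14.33 in EAE samples against 12.75 to 13.37 in OVA samples. The highest OVA level was that of replicate 3, and the other OVA samples reached at most 12.76. Ifit3 differed by 1.73 (adjusted p = 0.0462), Oasl2 by 1.29 (0.0461) and Mx1 by 1.18 (0.0233), all interferon-induced antiviral genes, and Mx2, named after its value was seen, by 0.65. Of 18 tested STAT3 targets 3 were higher, with a median of 0.31. These were Saa3, an acute phase protein, by 3.62 (adjusted p = 0.000309), Gfap, the astrocyte filament, by 1.35 (0.00446), and Cebpb, a transcription factor, by 1.17 (0.0310). Of the 18 differences, 14 were above 0. Lcn2, an iron-trapping acute phase protein named after its values were seen, was 11.37, 11.78 and 10.35 in EAE samples, against 11.93, 12.49 and 12.93 in OVA samples. Every EAE value of Lcn2 lay below every OVA value, and the difference was -1.28 ± 0.38 (limma adjusted p = 0.145). Osmr, the oncostatin M receptor, and Lrg1, also named after their values were seen, had -0.40 and -0.32. Of 9 STAT5 targets none was called (median 0.51, 6 above 0), and Pim1, a kinase, had 1.16 (adjusted p = 0.0548). Of 11 STAT6 targets 2 were higher (median 0.22, 8 above 0), Arg1 by 4.86 (adjusted p = 0.00850) and Ccl22 by 1.18 (0.00742). Of 8 STAT4 targets 1 was higher (median 0.39, 8 above 0), Ifng, the same call as among the ligands. Arg1 also belongs to the list of infiltrating monocyte markers, and Gfap to that of astrocytes, where 5 of the 8 markers were lower. Cish, Pim1 and Osmr each sat in more than 1 list, as did genes not named here, some of them shared with the cell marker lists. The counts and medians of the lists are therefore not independent. Of the called genes that the rule named in these lists, Saa3, Gfap and Il2rb passed the threshold in all 6 leave-outs of 1 sample. Arg1, Ccl22 and Csf2rb2 did not pass without EAE replicate 2 or without OVA replicate 2. Csf2rb, Il12rb1, Cebpb, Ifit3, Oasl2 and Mx1 passed, among the leave-outs, only without EAE replicate 3 or OVA replicate 3, Lif only without OVA replicate 1 or 3, and Ifng and Il2rg only without OVA replicate 3. With all 6 samples but no filter, Ifit3, Oasl2 and Il2rg did not pass (limma adjusted p of 0.0537, 0.0552 and 0.0509). Without the intensity trend, Ifit3 and Oasl2 did not pass (0.0567 each). The other called genes that the rule named passed in every fit of all 6 samples that held them.

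**Figure D5:**
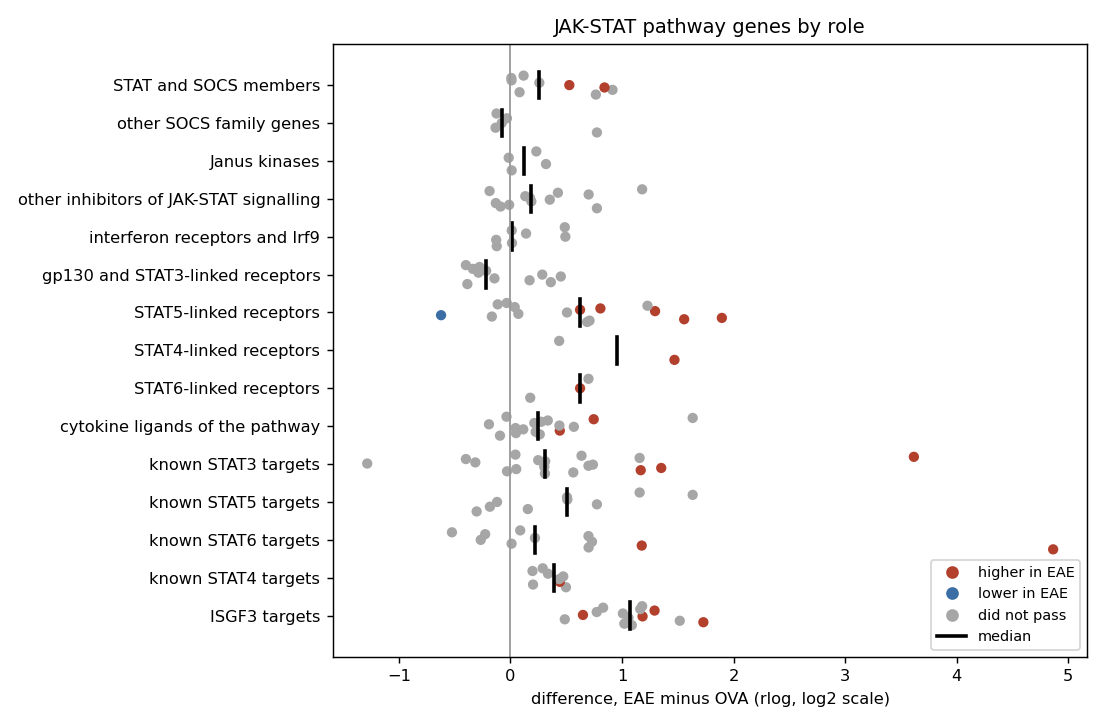
Differences EAE minus OVA (log2 scale) of the genes in each pathway and target list, with a point for each tested gene, coloured where it passed the threshold, and a black bar for the list's median. The ISGF3 targets lie above 0 in every case, and the STAT5-linked receptors range from -0.62 to 1.89.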

How the data were processed

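RNA of 3 EAE and 3 OVA samples was sequenced from TruSeq Stranded mRNA libraries, per the labels' protocols. Software named without role or order was STAR 2.6.1c, Subread 1.6.1, DESeq2 1.24.0, cutadapt 1.18 and bcl2fastq 2.17, with GRCm38 as the build, per the submitters' processing notes. The authors deposited 1 table of log2-scale values, named and shaped as the regularized logarithm (rlog) of scaled counts. The rlog design and annotation release are not given in the sources used here. No counts were used, so depth is unknown and no count test was run.

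Symbols came from GENCODE M21 (GRCm38), matched by identifier without version for 55117 of 55298 identifiers (99.7%), with the highest mean where a symbol repeats. Genes with a mean rlog of at least 3 were fitted with limma 3.58.1 in R 4.3.3, with an intensity trend, two-sided, Benjamini-Hochberg adjusted over all tested genes, threshold 0.05, and the fit was tested on simulated data. An exact permutation test of 3 against 3 cannot give a p under 0.1. Replicates were numbered in accession order and pair nothing, and pools average their mice, so the spread is not that between mice. Positions are 1-based.

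The members and lists were chosen with earlier results of these data known. One further STAT gene is not reported here. Named genes are all members, up to 3 called genes of largest difference per list (or that of smallest p), the 3 closest profiles to each called member, and the neighbours. Alternatives were other filters, scalings, priors, array weights and leaving out each sample.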

Additional observations from a re-analysis of the deposited data

How the results depend on the processing

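The count of the 9 genes that were higher was 2. It was 1 with no filter on low values and 0 to 4 over the leave-outs of 1 sample, and none was lower under any setting. Genes higher among all tested numbered 312, against 1035 with array quality weights and 24 to 850 over the leave-outs, and genes lower 121, against 433 and 1 to 346. Stat5a and Stat5b changed sign: Stat5a was -0.014 with median centring, -0.022 with quantile normalization and -0.078 to 0.082 over the leave-outs, and Stat5b -0.016, -0.0012 and -0.038 to 0.067. Socs2 ran from -0.00056 to 0.18 over the leave-outs, and Clec16a from -0.050 to 0.0059. The cause was not tested. Socs3 passed the threshold with quantile normalization (limma adjusted p = 0.0458) and with array quality weights. Without the filter 30054 genes were fitted. At a mean rlog of at least 6, 13969 were fitted and Stat4 and Socs1 were left out, so they have no value there. Array weights were estimated gene by gene, since the default method did not converge. No paired analysis was possible because the replicate numbers follow accession order only and pair nothing. Depth limits could not be stated, since the values are not counts. The rlog shrinkage can understate differences of weakly expressed genes such as Stat4 and Socs1, and its size was not measured here.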
